A study of Mus musculus with 9 samples.

Results

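The 10 genes described are part of the integrated stress response (ISR) and were chosen by gene symbol in mouse fibroblasts under hyperosmotic stress. They were the transcription factors Atf4, Ddit3 (CHOP), Cebpb and Cebpg, the phosphatase subunits Ppp1r15a (GADD34) and Ppp1r15b (CReP), and the effectors Trib3, Chac1, Sesn2 and Ddit4 (REDD1). All 10 were found among the 35275 genes of the deposited table, and all 10 were among the 13082 genes that passed the filter on low counts.

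The cells were wild type mouse embryonic fibroblasts (MEFs) of the C57Bl/6 strain, which all groups share. They were left in iso-osmolar medium (300 mOsm, the control), or treated for 3 h with medium brought to 500 mOsm by 200 mM sucrose (lower intensity stress) or to 600 mOsm by 300 mM sucrose (higher intensity stress). Polyadenylated RNA was sequenced as 3 libraries per treatment, 9 in all. The labels do not say that the 3 libraries of a treatment came from separate cultures, so the p-values measure the spread between these libraries, which may be technical.

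In the ISR, kinases phosphorylate the initiation factor eIF2α, which lowers protein synthesis in general and raises translation of a few mRNAs, Atf4 among them. ATF4 then drives genes of amino acid supply and stress adaptation, and with prolonged stress also CHOP, which is tied to cell death. GADD34 and CReP bring protein phosphatase 1 to eIF2α and so reverse the signal, GADD34 as the inducible subunit and CReP as the constitutive one. Because Atf4 is controlled largely at translation, the level of its mRNA is not a measure of ATF4 protein, and protein was not measured in these libraries.

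The libraries held 21716042 to 26740832 counts on genes, and a count of 3 corresponded to 0.112 to 0.138 CPM, a lower limit that covers counting error alone. This limit is relative to the plain library total, before the normalization described below. The lowest count of any of the 10 genes in any library was 157 (Trib3), so none was near that floor. Between libraries of one treatment, the counts differed by more than sampling noise in every pair (chi-square per gene 5.27 to 15.95, where 1 is sampling noise), and each library was counted as a separate replicate. The share of counts from the mitochondrial genome was 0.54 to 0.63% in iso-osmolar medium, 0.39 to 0.49% at 500 mOsm and 0.32 to 0.40% at 600 mOsm. All 10 fibroblast markers examined had a mean above 1 CPM in every treatment. Their summed level, most of it Col1a1, Col1a2 and Vim, was 16493 to 17741 CPM in iso-osmolar medium, 16247 to 17242 CPM at 500 mOsm and 19104 to 20977 CPM at 600 mOsm. The markers did not move together: at 500 mOsm 1 rose (Pdgfrb, log2 fold change 0.17) and 3 fell (Col3a1, Pdgfra and Prrx1, -1.27, -0.70 and -0.63), at 600 mOsm 4 rose and 4 fell, and at 600 against 500 mOsm 5 were higher and 2 lower. By the test described below, 28%, 35.1% and 29.1% of all tested genes changed in either direction in the same order. Genes with at least 1 count numbered 16452 to 16871 per library in iso-osmolar medium, 18920 to 19222 at 500 mOsm and 17846 to 18031 at 600 mOsm.

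Levels are given below as CPM after TMM normalization in edgeR, and genes of different length are compared only by FPKM. Differences were tested by edgeR's quasi-likelihood test, and a gene was said to rise or fall where its Benjamini-Hochberg adjusted p over all 13082 genes (here "edgeR adjusted p") was under 0.05. A log2 fold change is followed by its standard error (SE), with 3 libraries in each treatment. The SE was derived from the test, as the absolute log2 fold change divided by the square root of the test's F statistic. In bulk RNA, a change in the cells that express a gene cannot be told apart from a change in RNA per cell.

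At 500 mOsm, where 28% of all tested genes passed the test, the ISR genes did not move as a group. Ppp1r15a and Ddit4 rose strongly and Atf4 rose slightly, while Ppp1r15b, Chac1, Sesn2 and Cebpg fell, and Ddit3, Trib3 and Cebpb did not pass the test. Thus 3 of the 10 genes rose and 4 fell, with 13.2% of all tested genes higher and 14.8% lower. Over the 10, the median log2 fold change was -0.16 (0.01 over all tested genes), and the median absolute log2 fold change was 0.35 (0.17 over all tested genes).

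At 600 mOsm 5 of the 10 genes passed the test against iso-osmolar medium. Ddit3, Ppp1r15a and Ddit4 rose against iso-osmolar medium, Ppp1r15b and Cebpg fell, and the others did not pass it. These 3 higher and 2 lower genes stand against 15.1% of tested genes higher, 20% lower and 35.1% in either direction. Over the 10, the median log2 fold change was 0.14 (0.01 over all tested genes). Because both comparisons use the same iso-osmolar libraries, they are not independent of each other.

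Between the 2 intensities, Ddit3, Trib3, Chac1 and Sesn2 were higher at 600 than at 500 mOsm, and Atf4, Ppp1r15a and Ddit4 were lower. Here 11.9% of all tested genes were higher at 600 mOsm, 17.2% were lower and 29.1% passed in either direction. The levels of the libraries did not overlap for 7 of the 10 genes in each of the 3 comparisons, against 40.9% of tested genes for 500 mOsm against iso-osmolar, 48.4% for 600 mOsm against iso-osmolar and 41.5% for 600 against 500 mOsm. The plot of levels in each library shows the 10 genes one by one.

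**Figure D1:**
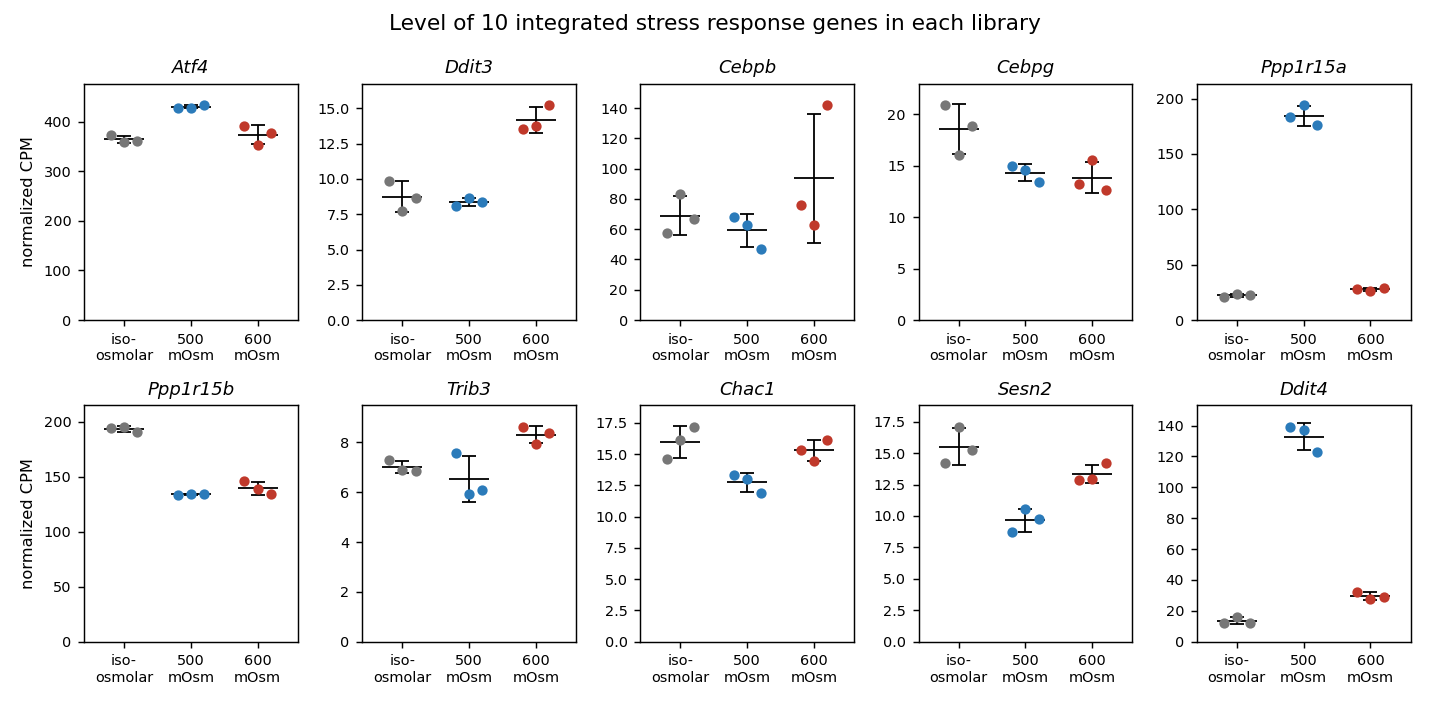
Normalized CPM (vertical axis, from 0, a separate scale for each gene) of the 10 ISR genes in each library, by treatment (horizontal axis). Each point is a library, and the horizontal line and bars are the mean and SD of 3 libraries. Ppp1r15a and Ddit4 stand far above the other treatments at 500 mOsm, Ddit3 is highest at 600 mOsm, and 1 of the Cebpb libraries at 600 mOsm lies at 142 CPM, far above the other two.

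**Figure D2:**
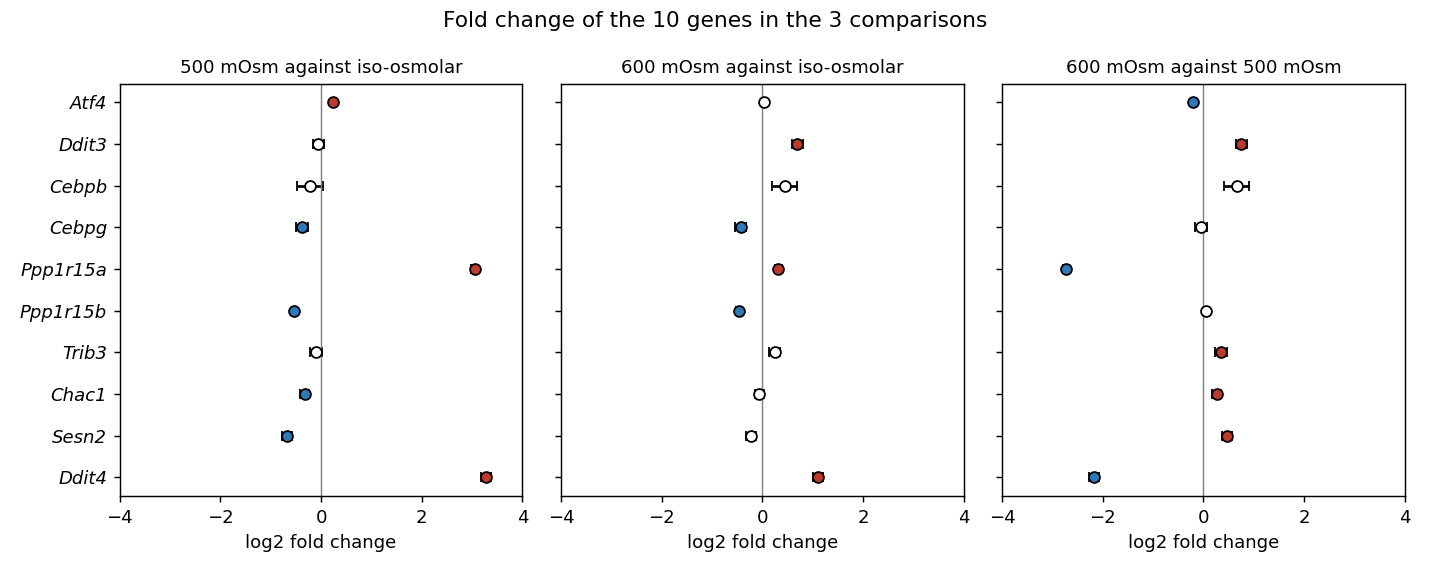
Log2 fold change (horizontal axis) of the 10 ISR genes in the 3 comparisons. Bars are the SE derived from the edgeR test, and filled points passed an adjusted p of 0.05 (red higher, blue lower). The changes of Ppp1r15a and Ddit4, 3.05 and 3.28 at 500 mOsm, are far larger than those of the other genes.

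Among the transcription factors, Atf4 encodes the central activator of the response. It lies on chromosome 15 (mm10, 80255184 to 80257540, plus strand). Its level was 373, 359 and 359.9 CPM in the iso-osmolar libraries, 428, 428 and 433 CPM at 500 mOsm, and 390.1, 353 and 378 CPM at 600 mOsm. Every library at 500 mOsm was above every library of the other treatments, while iso-osmolar and 600 mOsm overlapped. Atf4 rose 1.18-fold at 500 mOsm (log2 fold change 0.24, SE 0.0454, edgeR adjusted p = 0.00143). At 600 mOsm its log2 fold change against iso-osmolar was 0.04 (SE 0.0454, edgeR adjusted p = 0.558), and against 500 mOsm it was -0.20 (SE 0.0453, edgeR adjusted p = 0.00507). By FPKM Atf4 was the most abundant of the 10 genes in every treatment, at 212 ± 5.97 without stress, 249.8 ± 4.04 at 500 mOsm and 215 ± 8.75 at 600 mOsm (SD, n = 3).

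Ddit3 encodes CHOP, a bZIP factor induced downstream of ATF4. It lies on chromosome 10 (127290774 to 127296288, plus strand). Its level was 9.88, 7.74 and 8.63 CPM in iso-osmolar medium, 8.12, 8.67 and 8.39 CPM at 500 mOsm, and 13.5, 13.7 and 15.2 CPM at 600 mOsm. The 600 mOsm libraries were all above the other 6, and those of iso-osmolar medium and 500 mOsm overlapped. Ddit3 rose 1.62-fold at 600 mOsm against iso-osmolar (log2 fold change 0.70, SE 0.104, edgeR adjusted p = 0.000253) and was 1.69-fold higher than at 500 mOsm (0.76, SE 0.104, edgeR adjusted p = 0.000143). At 500 mOsm its log2 fold change was -0.06 (SE 0.107, edgeR adjusted p = 0.744). Ddit3 shares 68 exon bases with Mars, a tRNA synthetase gene on the opposite strand with 5026 to 7128 counts per library, and 105 exon bases with a further Ddit3 gene model on its own strand that was not used here. The sources used here do not say that counting used strand, so reads from these bases of Ddit3 and Mars cannot be told apart. Mars itself was higher at 600 mOsm by a log2 fold change of 0.21 (SE 0.0467, edgeR adjusted p = 0.00405), and its part in the Ddit3 counts was not tested.

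The FPKM ratio of Ddit3 to Atf4 was 0.0426 in iso-osmolar medium (0.0383 to 0.0472), 0.0347 at 500 mOsm (0.0338 to 0.0360) and 0.0674 at 600 mOsm (0.0617 to 0.0717), each the geometric mean and range of 3 libraries. The ranges did not overlap in any of the 3 comparisons, so that the ratio was lowest at 500 mOsm and highest at 600 mOsm. Each comparison gave a two-sided exact permutation p of 0.1, the smallest that 3 against 3 libraries allow (0.15 after Benjamini-Hochberg adjustment over 9 ratio comparisons), so none could pass 0.05.

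Cebpb encodes C/EBPβ, a partner of ATF4 and CHOP. It is a gene of 1 exon on chromosome 2 (167688915 to 167690418, plus strand). Its level was 57.2, 83.0 and 66.5 CPM in iso-osmolar medium, 68.2, 62.6 and 47.1 CPM at 500 mOsm, and 76.3, 62.5 and 142 CPM at 600 mOsm. The treatments overlapped, and replicate 3 at 600 mOsm was well above the other 8. Its log2 fold change was -0.22 at 500 mOsm (SE 0.250, edgeR adjusted p = 0.579), 0.44 at 600 mOsm (SE 0.248, edgeR adjusted p = 0.187) and 0.66 at 600 against 500 mOsm (SE 0.249, edgeR adjusted p = 0.0645). Without replicate 3 at 600 mOsm, the log2 fold change at 600 mOsm against iso-osmolar was 0.01, and against 500 mOsm it was 0.23. Without replicate 2 at 600 mOsm, Cebpb passed the test in both (log2 fold change 0.66, edgeR adjusted p = 0.0369 against iso-osmolar, and 0.89, edgeR adjusted p = 0.0104 against 500 mOsm). Cebpb shares 312 exon bases with Tmem189 on the opposite strand, which had 676 to 971 counts per library, and reads from these bases cannot be told apart either.

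Cebpg encodes C/EBPγ, another dimer partner of ATF4. The gene is on chromosome 7 (35046422 to 35056503, minus strand). Its level was 20.9, 16.0 and 18.9 CPM in iso-osmolar medium, 15.0, 14.6 and 13.4 CPM at 500 mOsm, and 13.3, 15.5 and 12.7 CPM at 600 mOsm. All stressed libraries were below all iso-osmolar ones, and the 2 intensities overlapped. Cebpg fell by 0.38 on the log2 scale at 500 mOsm (SE 0.111, edgeR adjusted p = 0.0219) and by 0.43 at 600 mOsm (SE 0.111, edgeR adjusted p = 0.0101). Between the intensities its log2 fold change was -0.05 (SE 0.112, edgeR adjusted p = 0.777). The FPKM ratio of Cebpb to Cebpg was 11.4 without stress, 12.6 at 500 mOsm and 19.7 at 600 mOsm, with overlapping ranges (two-sided exact permutation p = 0.7, 0.2 and 0.3 for 500 mOsm against iso-osmolar, 600 mOsm against iso-osmolar and 600 against 500 mOsm).

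The phosphatase subunits moved in opposite directions at 500 mOsm. Ppp1r15a, the inducible subunit GADD34, lies on chromosome 7 (45522916 to 45526268, minus strand). Its level was 20.5, 23.9 and 22.4 CPM in iso-osmolar medium, 183, 194 and 176 CPM at 500 mOsm, and 28.2, 26.2 and 28.8 CPM at 600 mOsm. The 500 mOsm libraries stood far above all others, and the 600 mOsm libraries lay just above the iso-osmolar ones without overlap. Ppp1r15a rose 8.29-fold at 500 mOsm (log2 fold change 3.05, SE 0.0688, edgeR adjusted p = 1.01e-11) and 1.25-fold at 600 mOsm (0.32, SE 0.0701, edgeR adjusted p = 0.00373). It was 6.64-fold lower at 600 than at 500 mOsm (log2 fold change -2.73, SE 0.0673, edgeR adjusted p = 2.10e-11). Of the gain in mean CPM at 500 mOsm, 3.40% was present at 600 mOsm.

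Ppp1r15b, the constitutive subunit CReP, lies on chromosome 1 (133131143 to 133139783, plus strand). Its level was 194, 195 and 190.3 CPM in iso-osmolar medium, 133, 134 and 134 CPM at 500 mOsm, and 146, 139 and 134 CPM at 600 mOsm. Both intensities were below every iso-osmolar library and overlapped each other. Ppp1r15b was 1.44-fold lower at 500 mOsm (log2 fold change -0.53, SE 0.0450, edgeR adjusted p = 1.95e-06) and 1.38-fold lower at 600 mOsm (-0.47, SE 0.0450, edgeR adjusted p = 6.66e-06). Between the intensities the log2 fold change was 0.06 (SE 0.0451, edgeR adjusted p = 0.355). Ppp1r15b shares 640 exon bases with Gm26616 on the opposite strand, a gene model not used here.

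Per length, Ppp1r15b was the more abundant of the 2 subunit mRNAs in iso-osmolar medium and at 600 mOsm, and Ppp1r15a was at 500 mOsm. The FPKM ratio of Ppp1r15a to Ppp1r15b was 0.229 in iso-osmolar medium (0.210 to 0.244), 2.74 at 500 mOsm (2.62 to 2.88) and 0.396 at 600 mOsm (0.376 to 0.428). None of these ranges overlapped, and each comparison gave a two-sided exact permutation p of 0.1, the smallest possible with 3 against 3 libraries (0.15 after adjustment over 9). The summed FPKM of both was 42.7 ± 0.369 without stress, 89.8 ± 2.32 at 500 mOsm and 34.5 ± 1.21 at 600 mOsm (SD, n = 3). Ppp1r15a made up 18.6 ± 1.15%, 73.3 ± 0.933% and 28.4 ± 1.41% of that sum.

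**Figure D3:**
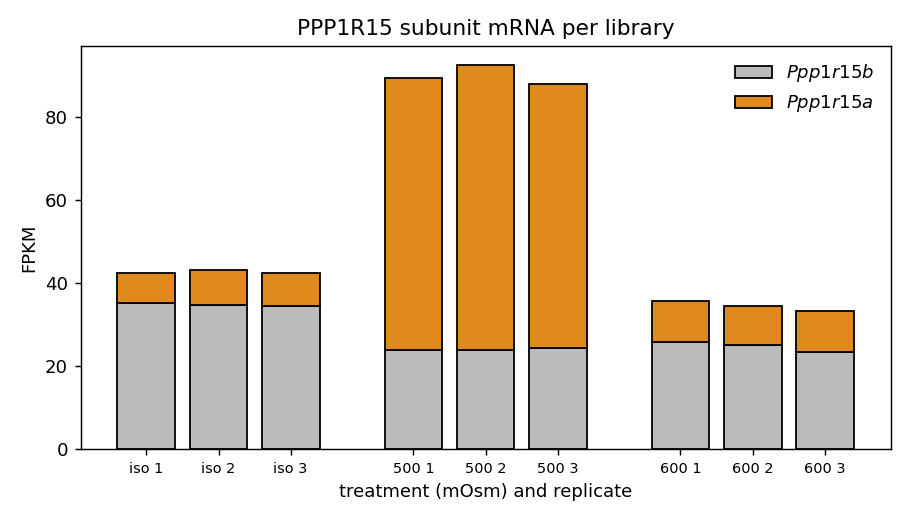
FPKM (vertical axis, from 0) of Ppp1r15b (grey) and Ppp1r15a (orange), stacked, in each of the 9 libraries (horizontal axis, treatment and replicate). The sum is near 90 only at 500 mOsm, where Ppp1r15a makes up most of it. At 600 mOsm the sum, 34.5, is below the 42.7 of iso-osmolar medium.

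The promoter of Ppp1r15a is shown because it was one of the 2 genes that rose most at 500 mOsm. Promoters from RefSeq (GRCm38.p6, 250 bases before to 50 bases after the start) were found for 9 of the 10 genes. They were searched on both strands for TGATGNAA (the C/EBP-ATF response element bound by ATF4 with a C/EBP partner), TGACGTCA (the cAMP response element, CRE, bound by factors of the CREB and ATF families) and TGGAAA (the core of the tonicity element bound by NFAT5). The 250 bases before the start of Ppp1r15a (chr7:45526269-45526518, minus strand) are printed 5′ to 3′, with capitals on the TGGAAA match, read here on the other strand and beginning at -54, and on the TGACGTCA match, beginning at -12.
Ppp1r15a: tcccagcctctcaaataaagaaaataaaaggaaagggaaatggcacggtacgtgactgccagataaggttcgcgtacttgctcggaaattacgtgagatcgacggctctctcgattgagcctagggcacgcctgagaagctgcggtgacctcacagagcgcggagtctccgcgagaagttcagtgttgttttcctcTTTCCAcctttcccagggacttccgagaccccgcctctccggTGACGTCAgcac

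Of all 32851 promoters of this length, 1.79% held TGACGTCA (3.11% of the 11910 promoters of tested genes), 21.4% held TGGAAA (16.6% of those of tested genes) and 3.97% held TGATGNAA (2.24% of those of tested genes). Ppp1r15a was the 1 gene of the 9 with TGACGTCA, and Atf4 was the other with TGGAAA, beginning at -159. A match is a description of letters and not evidence of binding.

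Among the effectors, Ddit4 encodes REDD1, an inhibitor of mTORC1 signalling. It lies on chromosome 10 (59949675 to 59951770, minus strand). Its level was 12.3, 16.3 and 12.4 CPM in iso-osmolar medium, 139, 137 and 123 CPM at 500 mOsm, and 32.2, 27.7 and 28.8 CPM at 600 mOsm. No 2 treatments overlapped, with the highest levels at 500 mOsm and intermediate ones at 600 mOsm. Ddit4 rose 9.69-fold at 500 mOsm (log2 fold change 3.28, SE 0.105, edgeR adjusted p = 2.47e-10) and 2.16-fold at 600 mOsm (1.11, SE 0.106, edgeR adjusted p = 6.52e-06). It was 4.49-fold lower at 600 than at 500 mOsm (log2 fold change -2.17, SE 0.0972, edgeR adjusted p = 7.64e-09), and 13.3% of its gain in mean CPM was present at 600 mOsm. An increase of more than 1 on the log2 scale that passed the test was seen at 500 mOsm for 5.43% of tested genes and at 600 mOsm for 2.42%, and at 600 against 500 mOsm for 1.57%. Of the 10 ISR genes it was seen for Ppp1r15a and Ddit4 at 500 mOsm and for Ddit4 at 600 mOsm.

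The 250 bases before the start of Ddit4 (chr10:59951771-59952020, minus strand) are printed for comparison with Ppp1r15a. None of the 3 motifs was found in its promoter, which says only that these letters are not in this window.
Ddit4: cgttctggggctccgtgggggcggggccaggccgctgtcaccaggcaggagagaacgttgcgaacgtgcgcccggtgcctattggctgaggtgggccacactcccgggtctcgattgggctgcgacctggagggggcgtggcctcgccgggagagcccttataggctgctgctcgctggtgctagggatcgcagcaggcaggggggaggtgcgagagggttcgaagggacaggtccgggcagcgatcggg

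Sesn2 encodes sestrin 2, a stress-induced regulator of mTORC1 and redox state. The gene is on chromosome 4 (132492032 to 132510501, minus strand). Its level was 14.21, 17.1 and 15.2 CPM in iso-osmolar medium, 8.73, 10.5 and 9.72 CPM at 500 mOsm, and 12.9, 12.9 and 14.19 CPM at 600 mOsm. The lowest libraries were those at 500 mOsm, and the 3 treatments did not overlap, although the highest library at 600 mOsm lay only just below the lowest iso-osmolar one. Sesn2 was 1.60-fold lower at 500 mOsm (log2 fold change -0.68, SE 0.102, edgeR adjusted p = 0.000233), the opposite direction to Ddit4. At 600 mOsm its log2 fold change against iso-osmolar was -0.22 (SE 0.09997, edgeR adjusted p = 0.113), and against 500 mOsm it was 0.47 (SE 0.103, edgeR adjusted p = 0.00443).

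Chac1 encodes a γ-glutamyl cyclotransferase that degrades glutathione. The gene is on chromosome 2 (119351229 to 119354381, plus strand). Its level was 14.6, 16.1 and 17.2 CPM in iso-osmolar medium, 13.4, 13.0 and 11.9 CPM at 500 mOsm, and 15.3, 14.4 and 16.1 CPM at 600 mOsm. The 500 mOsm libraries were the lowest, and iso-osmolar and 600 mOsm overlapped. Chac1 was 1.25-fold lower at 500 mOsm (log2 fold change -0.33, SE 0.0913, edgeR adjusted p = 0.0171). At 600 mOsm its log2 fold change against iso-osmolar was -0.06 (SE 0.0906, edgeR adjusted p = 0.632). Against 500 mOsm it was 0.26 (SE 0.0914, edgeR adjusted p = 0.0465), a call lost in 6 of the 9 fits that left out 1 library and by the Wald test of DESeq2 (adjusted p = 0.0723).

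Trib3 encodes a pseudokinase that restrains ATF4 and AKT. The gene is on chromosome 2 (152337422 to 152344032, minus strand). Its level was 7.29, 6.88 and 6.87 CPM in iso-osmolar medium, 7.58, 5.92 and 6.10 CPM at 500 mOsm, and 8.62, 7.92 and 8.39 CPM at 600 mOsm. All 600 mOsm libraries were above all others, and iso-osmolar and 500 mOsm overlapped. Trib3 had a log2 fold change of -0.10 at 500 mOsm (SE 0.115, edgeR adjusted p = 0.567) and of 0.25 at 600 mOsm (SE 0.113, edgeR adjusted p = 0.112). It was 1.27-fold higher at 600 than at 500 mOsm (0.35, SE 0.113, edgeR adjusted p = 0.0350), a call lost in 4 of the 9 fits that left out 1 library and by the Wald test of DESeq2 (adjusted p = 0.0700).

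Chac1 and Trib3 were the 2 genes of the 9 with TGATGNAA in the promoter, and neither passed the test as higher at 500 mOsm. Both were higher at 600 than at 500 mOsm, by calls that were lost in some refits, as given above. Windows of 30 bases around the match, with the match in capitals, are shown beside those of 3 other ATF4 target genes with a match, Asns, Atf3 and Nupr1, which were chosen after their values were seen. The matches of Chac1, Trib3, Atf3 and Nupr1 lie on the strand opposite to the gene and that of Asns on the gene's strand. They begin at -193 in Chac1 (chr2:119351038-119351067), at 15 in Trib3 (chr2:152344028-152344057), at -110 in Atf3 (chr1:191183425-191183454), at -110 in Nupr1 (chr7:126625562-126625591) and at -23 in Asns (chr6:7693214-7693243). The RefSeq start of Trib3 lies upstream of the gene's limits in the deposited table, and so does its match. The windows are read along the gene's strand, which is plus for Chac1 and minus for the others.
Chac1: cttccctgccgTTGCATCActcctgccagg
Trib3: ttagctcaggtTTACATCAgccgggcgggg
Atf3: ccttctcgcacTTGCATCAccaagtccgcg
Nupr1: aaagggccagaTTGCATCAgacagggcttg
Asns: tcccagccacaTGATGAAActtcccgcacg

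Atf3, a bZIP repressor and ISR target, was at 2.82, 2.87 and 2.00 CPM in iso-osmolar medium, 20.8, 19.5 and 22.9 CPM at 500 mOsm, and 3.81, 4.79 and 3.29 CPM at 600 mOsm. Nupr1, a stress-induced transcriptional regulator, was at 6.06, 6.84 and 5.72 CPM, then 31.7, 32.4 and 33.4 CPM, then 8.79, 7.30 and 6.92 CPM in the same order. Asns, asparagine synthetase, was at 189.7, 196 and 185 CPM, then 168, 178 and 189.9 CPM, then 202, 204 and 212 CPM. Atf3 and Nupr1 rose at 500 mOsm (log2 fold change 3.04, SE 0.155, edgeR adjusted p = 2.25e-08, and 2.39, SE 0.103, edgeR adjusted p = 5.23e-09) and Asns did not pass the test there. At 600 against 500 mOsm Asns was higher (0.20, SE 0.0519, edgeR adjusted p = 0.0102), and Atf3 and Nupr1 were lower (-2.41 and -2.08). These 3 were looked up after their values were seen and not found by a search of all targets. The element is in 267 promoters of tested genes, so these 3 say nothing of such genes as a group. The promoter of Nupr1 also holds 2 matches of TGGAAA, beginning at -229 and -221. Slc38a2, described below, was looked up in the same way, and no match of the 3 motifs was listed for it. The values do not tell whether its promoter was among those searched.

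The order of the 10 genes by FPKM changed with the treatment. In iso-osmolar medium it ran from Atf4 (212) over Cebpb (46.0) and Ppp1r15b (34.7) to Chac1 (9.80), Ddit3 (9.08), Ddit4 (8.15) and Ppp1r15a (7.95), whose neighbours in this order overlapped, and then to Sesn2 (4.48), Cebpg (4.03) and Trib3 (3.48), where neighbours overlapped as well. At 500 mOsm Ddit4 (79.0) and Ppp1r15a (65.8) stood next after Atf4 and above Cebpb (39.5) and Ppp1r15b (24.0), with no overlap between neighbours. There Ddit3 (8.68) and Chac1 (7.80) followed, and Trib3 (3.23), Cebpg (3.09) and Sesn2 (2.79) came last with overlapping libraries. At 600 mOsm the order was Atf4 (215), Cebpb (61.4), Ppp1r15b (24.7), Ddit4 (17.4), Ddit3 (14.5), Ppp1r15a (9.79), Chac1 (9.25), Trib3 (4.07), Sesn2 (3.80) and Cebpg (2.96), and only Ppp1r15a with Chac1 and Trib3 with Sesn2 overlapped as neighbours.

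Of 11 tested genes for eIF2α kinases and their regulators, 1 rose and 2 fell at 500 mOsm, 2 rose and 1 fell at 600 mOsm, and 1 was higher and 0 lower between the intensities, against 28%, 35.1% and 29.1% of all tested genes called in either direction, so these counts were near or below those over all genes. Eif2ak3, the kinase PERK of the endoplasmic reticulum, had means of 22.3 CPM in iso-osmolar medium, 16.7 CPM at 500 mOsm and 18.5 CPM at 600 mOsm, and fell by 0.41 on the log2 scale at 500 mOsm (SE 0.0750, edgeR adjusted p = 0.00103) and by 0.27 at 600 mOsm (SE 0.0748, edgeR adjusted p = 0.0146). Its call at 600 mOsm was lost in 2 of the 9 fits that left out 1 library. Nck1, an adaptor that dampens PERK signalling, fell by 0.42 at 500 mOsm (SE 0.105, edgeR adjusted p = 0.00853) and was 0.34 higher at 600 than at 500 mOsm (SE 0.105, edgeR adjusted p = 0.0279), a call lost in 4 of the 9 fits that left out 1 library, by DESeq2 (adjusted p = 0.0533) and by both limma fits (adjusted p = 0.0558 and 0.0680). The table's 0610009O20Rik, an older symbol of Dele1, a mitochondrial activator of the kinase HRI, rose at both intensities (0.24 at 500 mOsm and 0.25 at 600 mOsm, SE 0.0597 and 0.0598, edgeR adjusted p = 0.00912 and 0.00642), and Gcn1l1, the activator of the kinase GCN2, rose at 600 mOsm (0.27, SE 0.0632, edgeR adjusted p = 0.00534).

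Eif2ak2 and Prkra, which encode the kinase PKR and its activator PACT, are named because the study is about them. Eif2ak2 was at 5.60, 6.60 and 9.04 CPM in iso-osmolar medium, 10.4, 8.67 and 8.58 CPM at 500 mOsm, and 8.20, 10.5 and 6.96 CPM at 600 mOsm, with overlap between the treatments. Its log2 fold change was 0.37 at 500 mOsm (SE 0.182, edgeR adjusted p = 0.153) and 0.27 at 600 mOsm (SE 0.184, edgeR adjusted p = 0.288). Prkra had a log2 fold change of 0.18 (SE 0.0949, edgeR adjusted p = 0.187) and of 0.20 (SE 0.0952, edgeR adjusted p = 0.123). These are mRNA levels, and activation of the kinase was not measured here.

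Of the 8 tested subunits of eIF2 and its exchange factor eIF2B, Eif2b3 fell at 500 mOsm by 0.17, Eif2b5 rose at 600 mOsm by 0.16, and Eif2b5 and Eif2b1 were higher at 600 than at 500 mOsm by 0.20 and 0.21, all on the log2 scale. Over all tested genes, 28%, 35.1% and 29.1% were called in either direction in these 3 comparisons. In the 9 fits that left out 1 library, the call of Eif2b3 was lost in 5, that of Eif2b5 at 600 mOsm in 3 and that of Eif2b1 in 2. Eif2b3 also lost its call with the replicate block (adjusted p = 0.0730) and without the filter on low counts (adjusted p = 0.0687). The 3 catalytic subunits of protein phosphatase 1, to which GADD34 and CReP bind, did not pass the test at 500 mOsm. At 600 mOsm Ppp1ca rose by 0.18 and Ppp1cc fell by 0.27 against iso-osmolar, and Ppp1cc was lower than at 500 mOsm by a log2 fold change of -0.32 (SE 0.0423, edgeR adjusted p = 0.000111). The Ppp1ca call was lost in 4 of the 9 fits that left out 1 library.

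Paralogs of the ISR genes moved in both directions. Sesn1, a sestrin gene known as a p53 target, was at 8.61, 7.05 and 6.79 CPM in iso-osmolar medium, 19.2, 16.5 and 16.3 CPM at 500 mOsm, and 8.54, 9.09 and 8.78 CPM at 600 mOsm. It rose at 500 mOsm (log2 fold change 1.21, SE 0.109, edgeR adjusted p = 3.17e-06), where Sesn2 fell. Trib1 and Trib2, other tribbles pseudokinases, fell at 500 mOsm (-0.91 and -1.70) and at 600 mOsm (-1.60 and -1.29), where Trib3 passed the test in neither comparison. Cebpd fell by 0.93 at 500 mOsm (SE 0.144, edgeR adjusted p = 0.000309) and was 0.63 higher at 600 than at 500 mOsm (SE 0.145, edgeR adjusted p = 0.00569). Over the 9 tested paralogs, 1 rose and 3 fell at 500 mOsm, 1 rose (Chac2, 0.40, a call lost in all 9 fits that left out 1 library) and 2 fell at 600 mOsm, and 2 lay higher (Cebpd and Trib2) and 2 lower (Trib1 and Sesn1) between the intensities, against 28%, 35.1% and 29.1% of all tested genes called in either direction. The Trib2 call between the intensities (0.41) was lost in 8 of the 9 fits that left out 1 library, with DESeq2 (adjusted p = 0.138), with the replicate block (adjusted p = 0.0766) and with both limma fits.

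Of the 10 other tested bZIP factors that pair with these or share targets, 4 rose (Fos, Atf3, Jun and Jdp2) and 3 fell (Nfe2l2, Cebpd and Nfe2l1) at 500 mOsm, against 13.2% of all tested genes higher and 14.8% lower. The lists overlap, so that Cebpd was counted among the paralogs too, and Atf3 is counted again among the other ATF4 and CHOP targets below. At 600 mOsm 1 rose (Atf3, 0.62, SE 0.176, edgeR adjusted p = 0.0158) and 2 fell (Nfe2l1 and Nfe2l2), against 15.1% and 20% of all tested genes. At 600 against 500 mOsm 1 was higher (Cebpd) and 5 were lower (Fos, Atf3, Jun, Nfe2l1 and Jdp2, with log2 fold changes of -3.98, -2.41, -0.87, -0.38 and -0.26), against 11.9% and 17.2% of all tested genes. The Atf3 call at 600 mOsm was lost in 2 of the 9 fits that left out 1 library, and the Jdp2 call between the intensities in 4. Fos, a subunit of the AP-1 factor, was at 2.54 to 3.07 CPM in iso-osmolar medium, 38.3 to 42.6 CPM at 500 mOsm and 2.28 to 2.72 CPM at 600 mOsm, and its log2 fold change was 3.81 at 500 mOsm (SE 0.104, edgeR adjusted p = 6.07e-11) and -0.17 at 600 mOsm (SE 0.130, edgeR adjusted p = 0.381).

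Of the 45 other ATF4 and CHOP targets tested, 9 rose and 4 fell at 500 mOsm, 12 rose and 6 fell at 600 mOsm, and 7 lay higher and 9 lower at 600 than at 500 mOsm. These counts stand beside 13.2% and 14.8%, 15.1% and 20%, and 11.9% and 17.2% of all tested genes higher and lower in the same order, and the total called at 500 mOsm was near that over all genes. Their median log2 fold changes were 0.00, 0.04 and 0.05. Slc38a2, a transporter of neutral amino acids that is induced by hyperosmotic stress, was at 152, 138 and 147 CPM in iso-osmolar medium, 887, 808 and 934 CPM at 500 mOsm, and 146, 148 and 138 CPM at 600 mOsm. It rose at 500 mOsm (log2 fold change 2.59, SE 0.0615, edgeR adjusted p = 1.48e-11), and at 600 mOsm its log2 fold change was -0.02 (SE 0.0593, edgeR adjusted p = 0.856). The lower ones at 500 mOsm were Bbc3 (PUMA, a promoter of apoptosis, -1.41), Tnfrsf10b (death receptor DR5, -0.35), Slc7a1 (-0.22) and Slc3a2 (-0.20), the last 2 being genes of amino acid transport.

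At 600 mOsm the log2 fold changes of these targets ran from -1.20 to 0.62, against -1.41 to 3.04 at 500 mOsm. Slc6a9, a glycine transporter, rose by 0.49 (SE 0.0843, edgeR adjusted p = 0.000760) and Slc1a4, a transporter of neutral amino acids, by 0.26 (SE 0.0461, edgeR adjusted p = 0.000788). Slc6a9 rose at 500 mOsm as well (0.44, edgeR adjusted p = 0.00160), with 0.05 between the intensities (edgeR adjusted p = 0.696). Slc1a4 did not pass the test at 500 mOsm (0.04, edgeR adjusted p = 0.547). Bcl2l11 (BIM, a promoter of apoptosis and CHOP target) fell by 1.20 (SE 0.170, edgeR adjusted p = 0.000162) and Slc7a1 by 0.51 (SE 0.0476, edgeR adjusted p = 5.73e-06). At 600 against 500 mOsm the higher targets of lowest p were Bbc3 (log2 fold change 1.23, SE 0.225, edgeR adjusted p = 0.00128) and Sars, a tRNA synthetase gene (0.22, SE 0.0435, edgeR adjusted p = 0.00226). Psat1, Phgdh and Psph, serine synthesis enzymes chosen after their values were seen, did not pass the test at 500 mOsm (0.03, 0.005 and 0.02, edgeR adjusted p = 0.641, 0.953 and 0.796). At 600 mOsm Phgdh and Psph rose (0.23 and 0.15, edgeR adjusted p = 0.0018 and 0.0481), and Psat1 did not pass the test (0.07, edgeR adjusted p = 0.241). Phgdh was also higher at 600 than at 500 mOsm (0.22, edgeR adjusted p = 0.0023).

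**Figure D4:**
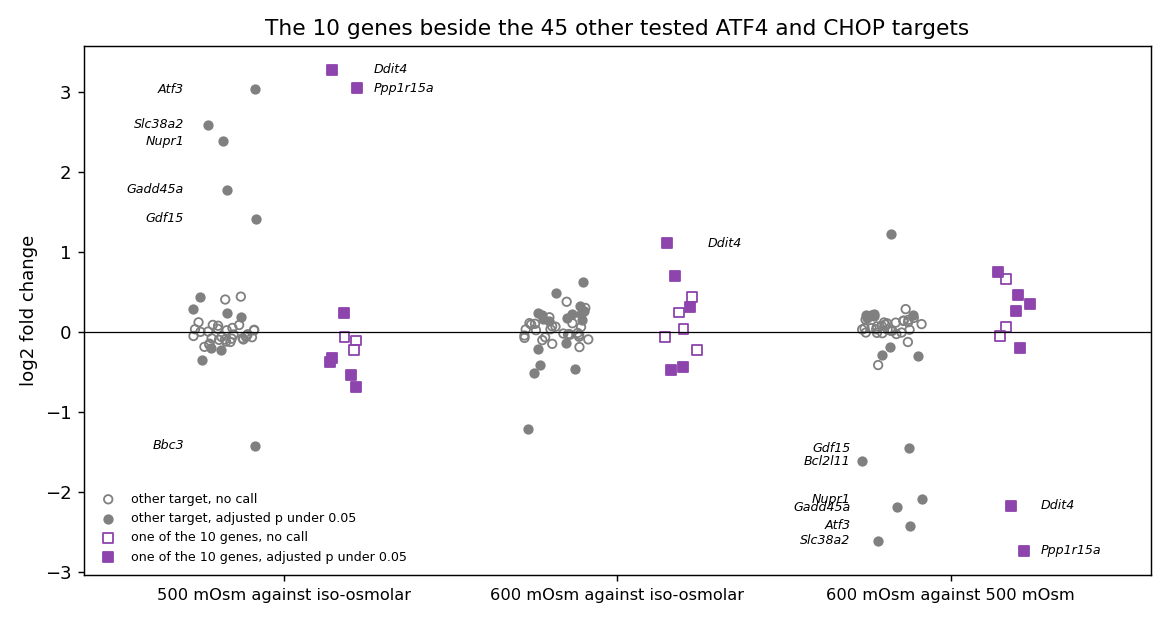
Log2 fold change (vertical axis) of the 10 ISR genes (squares) and the 45 other tested ATF4 and CHOP targets (circles) in the 3 comparisons (horizontal axis), with filled symbols for an edgeR adjusted p under 0.05. Horizontal position within a comparison is random. Most targets lie near 0. A few (Atf3 at 3.04, Slc38a2 at 2.59, Nupr1 at 2.39) are far above it at 500 mOsm, where Ddit4 and Ppp1r15a also lie. These 5 are below -2 at 600 against 500 mOsm. So is Gadd45a (-2.18), a target named after its values were seen, which is at 1.78 at 500 mOsm.

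Other genes rose at 500 mOsm beside Ppp1r15a and Ddit4 that mark other cell types. The summed level of 6 epithelial markers was 1.43 to 1.76 CPM in iso-osmolar medium, 5.00 to 6.39 CPM at 500 mOsm and 1.61 to 2.34 CPM at 600 mOsm, with 0 to 1 counts of Epcam in every library. Most of the rise was Cdh1, with means of 0.0137, 3.47 and 0.0944 CPM in the same order. The summed level of 6 endothelial markers was 0.860 to 1.06, 12.2 to 13.7 and 2.18 to 3.45 CPM, at 500 mOsm most of it Pecam1 (means of 0.279, 11.1 and 1.67 CPM), with 0 to 1 counts of Emcn. Kdr had 0 counts in iso-osmolar medium and 6 to 11 per library at 500 mOsm, and Vwf had 1 to 4 and 6 to 8. Both were below the filter on low counts. Cdh5 had means of 0.554 CPM in iso-osmolar medium and 0.568 CPM at 500 mOsm. The summed level of 5 haematopoietic markers was 12.1 to 12.9, 15.7 to 17.1 and 11.4 to 12.2 CPM, most of it Csf1r. One epithelial gene (Cdh1), 2 endothelial genes (Pecam1 and Tek) and 1 haematopoietic gene (Csf1r) passed the test as higher at 500 mOsm. They were among 3, 3 and 2 tested markers, and 13.2% of all tested genes were higher there. The part of such cells in the results was not tested.

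Over the 9 libraries, the gene whose centred log2 CPM lay nearest to that of Ppp1r15a was Frat2, a regulator of GSK3 (Euclidean distance 0.376, Pearson r 0.996), at means of 3.42, 29.3 and 4.59 CPM. The second was Iqsec3 (distance 0.514), which was listed at 0 in iso-osmolar medium and at 600 mOsm and at 0.454 CPM at 500 mOsm. Counting error is large at such levels. Nearest to Ppp1r15b was Ak4 (distance 0.136). Nearest to Atf4 were Ubn1 and Ndst1 (0.0713 and 0.0956), to Sesn2 Rundc1 and Zdhhc12 (0.184 and 0.228), to Chac1 Mfsd5 and Pear1 (0.161 and 0.163), to Cebpg Rab8b and Dcun1d4 (0.161 and 0.229), to Trib3 Atp5k and Gm16433 (0.200 and 0.224), and to Cebpb Ier5l and E130012A19Rik (0.408 and 0.481). For Ddit3 (Gm13283 and Gm9083) and Ddit4 (Gngt2 and Gm26698) the nearest genes had means below 1.5 CPM in every treatment, where counting error is large. The libraries are shared by all genes, so these distances are descriptions.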

How the data were processed

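RNA of 9 MEF libraries, 3 in each of 3 treatments, was read from one table of 35275 genes. For each library the authors deposited raw read counts per gene and FPKM based on the listed gene lengths. FPKM recomputed from counts, lengths and library totals differed by a relative 5.0e-12 at most. The table's columns of the authors' own fold changes and p-values were not used. The submitters' processing notes name CASAVA 1.8, STAR and mm10, and the counting tool and its use of strand are not given in the sources used here.

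The raw counts were scaled by TMM in edgeR 4.0.16 (R 4.3.3) and fitted jointly for the 9 libraries (glmQLFit and glmQLFTest) over 13082 genes kept by filterByExpr, with Benjamini-Hochberg adjustment and a threshold of 0.05. The biological coefficient of variation (common) was 0.0756, with a median log2 fold change SE of 0.0992 to 0.0997. FPKM ratios were compared by exact two-sided permutation of libraries. Libraries held 21716042 to 26740832 counts.

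The 10 genes, the lists and the tests were chosen with earlier results of these data known. Besides the 10 genes, the text names from each list other than the cell type markers, in each comparison, the 2 genes of lowest p that rose and the 2 that fell, all genes of a count of 5 or fewer, the 2 nearest profiles of each gene, and genes said to be chosen after their values were seen. A nearest profile of Ppp1r15b and the count of a haematopoietic marker are not reported here. Positions are those of the table (mm10). Exon overlaps used GENCODE M21, shared transcript sequence was searched with blastn 2.17.0 (at least 100 bases at 95% identity), and promoters came from RefSeq (GRCm38.p6). Of the 6 haematopoietic markers, 5 were in the table. The code was tested on simulated data.

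As alternatives, scaling was by RLE or by library size only. The gene filter was dropped or set to 10 counts in all libraries. DESeq2 1.42.0 (Wald), a 2-group fit, a term for replicate number, and limma 3.58.1 on log2(FPKM + 1) or log2(FPKM + 0.1) replaced the test. Calls were also limited to changes of 1 or more on the log2 scale or to adjusted p under 0.01, and libraries were dropped in turn.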

Additional observations from a re-analysis of the deposited data

How the results depend on the processing

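Of the 30 values of the 10 genes in 3 comparisons, 21 kept their direction and their side of the threshold in all 18 refits, among them every call of Ppp1r15a, Ppp1r15b, Ddit4, Sesn2 and Atf4, and the calls of Ddit3. The direction turned for Ddit3 at 500 mOsm without iso-osmolar replicate 1 (0.033; the fits without 1 library ran from -0.14), for Cebpg at 600 against 500 mOsm without 600 mOsm replicate 3 (0.010; from -0.14), and for Slc38a2 at 600 mOsm against iso-osmolar without iso-osmolar replicate 1 (0.016) or 600 mOsm replicate 3 (0.011; from -0.054), none of them called. The number of the 10 genes higher at 600 against 500 mOsm fell from 4 to 2 with DESeq2 and with a fit of the 2 groups alone, where Trib3 and Chac1 lost their calls, and to 2 at an adjusted p under 0.01 and 0 where a change of 1 or more on the log2 scale was required. The number lower at 500 mOsm fell from 4 to 2 at an adjusted p under 0.01 and to 0 under that requirement. At 600 mOsm, 1 was higher under that requirement, and 0 were lower under that requirement and 1 at an adjusted p under 0.01. Without 1 library, 3 to 3 genes were higher and 2 to 4 lower at 500 mOsm, 3 to 4 higher and 2 to 2 lower at 600 mOsm, and 2 to 5 higher and 3 to 3 lower at 600 against 500 mOsm. The 2 lower at 500 mOsm were reached without iso-osmolar replicate 3 or without 500 mOsm replicate 3, and the 2 higher at 600 against 500 mOsm without 500 mOsm replicates 2 or 3 or 600 mOsm replicates 1 or 3. Leaving out 1 library moved the log2 ratio of Ppp1r15a to Ppp1r15b between 3.52 and 3.63 at 500 mOsm, 0.73 and 0.84 at 600 mOsm, and -2.85 and -2.76 between the intensities, that of Ddit3 to Atf4 between -0.37 and -0.22, 0.59 and 0.74, and 0.91 and 1.02, and that of Cebpb to Cebpg between -0.06 and 0.40, 0.38 and 1.12, and 0.23 and 0.97, in the same order. Cebpg at 500 mOsm lost its call with limma on FPKM (adjusted p = 0.0530 and 0.0538) and in 3 of 9 fits without 1 library, and Chac1 at 500 mOsm in 2 of 9. Cebpb passed the test without the filter on low counts (log2 fold change -0.24 at 500 mOsm, 0.45 at 600 mOsm and 0.69 between the intensities, adjusted p = 0.00726, 6.09e-09 and 5.90e-20), and the cause was not tested.

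The replicate numbers did not pair the libraries: over 9413 genes, deviations from the treatment means of same-numbered libraries correlated between -0.62 and 0.54 (mean -0.22), and 2 of 9 libraries correlated best with their own number in another treatment. With the replicate block, 3 of the 10 genes were higher and 4 lower at 500 mOsm, 3 and 2 at 600 mOsm, and 3 and 3 at 600 against 500 mOsm, where Chac1 lost its call (adjusted p = 0.0961). Over all genes, 3111, 3798 and 3089 were called with the block against 3659, 4594 and 3810 without it. With about 7 CPM, Trib3 had the lowest depth of the 10 genes and an SE of 0.113 to 0.115.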
